A study of Homo sapiens with 16 samples.

Results

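Voltage-gated sodium and calcium channel genes were taken from the count table by symbol: every row named SCN with a number and A or B (sodium channel pore and beta subunits), and every row for a CACNA pore subunit, CACNA2D1 to CACNA2D4, CACNB1 to CACNB4 or CACNG1 to CACNG8. The rule found 37 of 27037 genes, of which 14 were sodium and 23 were calcium channel genes. CACNA1S, CACNG3 and CACNG6 were not analysed here. The samples were SK-N-BE(2)C cells, a human neuroblastoma line with amplified MYCN and an adrenergic identity, with 4 replicates in each of 4 groups. The DMSO group had vehicle, the PB group 1 µM palbociclib (which blocks CDK4 and CDK6, the kinases that open the cell cycle), the RA group 10 µM all-trans retinoic acid, and the PB+RA group both agents at those doses. Cells were treated for 5 days, and polyadenylated RNA was sequenced. All samples are of a single cell line in culture, and the study calls its replicates biological, so the spread given here is between cultures of that line.

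Voltage-gated channels open when the membrane is depolarised. Sodium channels carry the upstroke of the action potential through a large pore subunit, whose surface delivery and gating are tuned by small beta subunits. Calcium channels turn depolarisation into calcium entry: the pore subunit defines the current (L-type, P/Q-type, N-type and R-type, which need strong depolarisation, or T-type, which opens near rest), and the alpha2delta and cytoplasmic beta subunits carry high-voltage pores to the membrane. Most members of the gamma family are better known as partners of AMPA-type glutamate receptors than of calcium channels. In sympathetic neurons, the lineage from which neuroblastoma arises, N-type channels support transmitter release.

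Libraries held 19.5 to 31.6 M counts, so that a gene with 0 counts could lie at up to 0.0949 CPM (counts scaled to a library total of 1e6) in the deepest and 0.154 CPM in the shallowest, for counting error only. All 9 adrenergic neuroblastoma markers looked at, HAND2 and DBH among them, had a mean of at least 1 CPM. So did all 7 mesenchymal neuroblastoma markers with a row, CD44 and TWIST1 among them. A mean of 1 CPM therefore does not set the adrenergic identity apart from the mesenchymal. Of 6 Schwann cell markers, the defining SOX10 and MBP stayed under 0.1 CPM on average, while the summed level of all 6 ran from 29.0 to 32.4 CPM in DMSO, 53.1 to 56.0 with PB, 37.1 to 43.6 with RA and 61.2 to 74.2 with PB+RA, with S100B and PMP22 among those at 1 CPM or more. Among 5 muscle markers with a row, MYH7, MYOG and CKM were under 0.1 CPM, and the sum was at most 4.37 CPM in any sample. The 3 astrocyte markers summed to 18.0 to 25.9 CPM in DMSO and 2.50 to 4.66 CPM in PB+RA, mainly SLC1A3. The part of these markers in the channel results was not tested.

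Of the 37 channel genes, 25 passed the filter on low counts and were tested, and 18 had a mean of at least 1 CPM. A gene was called when its adjusted p was below 0.05 and its log2 fold change lay beyond 0.5 in either direction, and every adjusted p below comes from the quasi-likelihood test of edgeR, corrected by Benjamini-Hochberg over all 15415 genes tested. PB raised 17 channel genes and lowered 0, where 16.9% of all tested genes were called higher and 11.3% lower. RA raised 14 and lowered 1, CACNA2D2, against 10.8% higher and 2.54% lower among all tested genes. PB+RA raised 17 and lowered 0, against 24% and 17.9%. For the counts of 0, no tested member had a negative change at an unadjusted p below 0.05, and DESeq2 and limma-voom also called 0 members lower. The 0 for PB+RA depends on the filter. Among genes with a summed count above 10, CACNG5 and SCN1A, filtered out otherwise, were called lower with PB+RA, and 0 members with PB. SCN1A had at most 4 counts in any sample and CACNG5 at most 15. The counts over DMSO carry a further limit: 8 of the 25 tested members, CACNA1I and CACNG8 among them, did not reach the filter's 0.409 CPM in all 4 DMSO samples and passed through their levels in the treated groups. Among the 17 that reached it in DMSO, 13 were called higher and 0 lower with PB, 9 higher and 1 lower with RA, and 12 higher and 0 lower with PB+RA. The 3 comparisons share their DMSO samples. Fewer expressing cells and less RNA per cell cannot be told apart in these bulk samples.

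**Figure D1:**
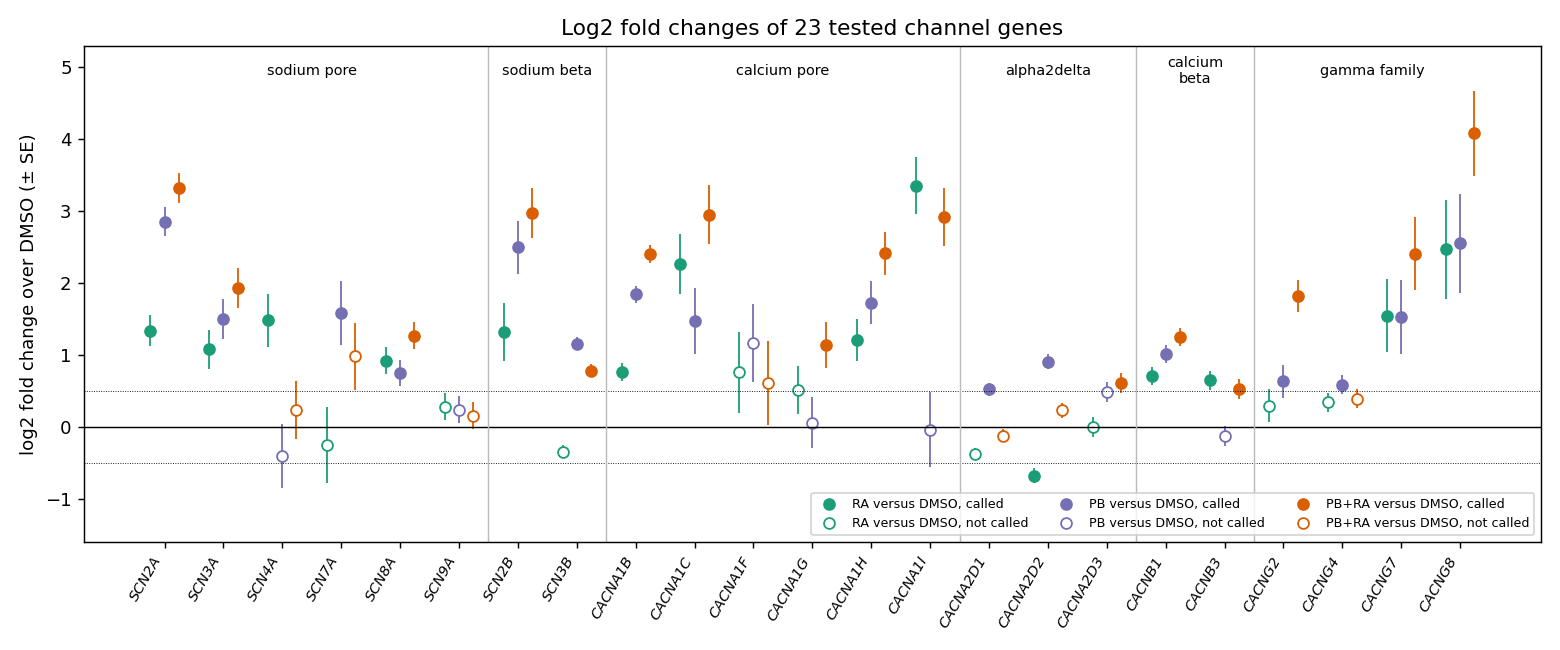
Log2 fold changes (y axis) of 23 tested channel genes (x axis, by subunit class) in RA, PB and PB+RA against DMSO, with bars for the SE from the fit to 16 samples. Filled points were called (adjusted p below 0.05 and a log2 change beyond 0.5, dotted lines); of the called points only CACNA2D2 in RA, at -0.68, lies below 0, and the CACNG8 points rest on 0 to 2 counts per DMSO sample and are no measure of size.

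Adding RA to PB raised 9 members and lowered 2 relative to PB alone, where 9.02% of all tested genes were called higher and 7.27% lower. The 2 lowered members were CACNA2D1 and CACNA2D2. Adding PB to RA raised 13 and lowered 1 relative to RA alone, against 14.9% and 14.1%, and the member lowered was the weakly expressed SCN4A. The members thus fell into a few response patterns. To set these beside upstream DNA, 4 genes with a RefSeq promoter sequence are shown (23 of 37 members had one). SCN2A rose most with PB among members averaging 1 CPM or more. CACNA1B rose with each agent and further with both. CACNA1I, at few counts, was called higher with RA and not called with PB. CACNA2D2 moved in opposite directions with PB and RA. Each line gives the 250 bases upstream of a single annotated start, the first listed for the gene, and any other starts were not looked at. Lines run 5′ to 3′ on the gene's own strand, in GRCh38.p14. Capitals mark the letters CCAAT or their reverse complement ATTGG, the motif of the factor NF-Y.
SCN2A: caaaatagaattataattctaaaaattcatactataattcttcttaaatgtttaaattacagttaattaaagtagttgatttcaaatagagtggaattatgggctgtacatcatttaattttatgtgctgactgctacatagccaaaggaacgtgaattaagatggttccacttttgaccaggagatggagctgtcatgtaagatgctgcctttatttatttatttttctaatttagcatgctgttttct
CACNA1B: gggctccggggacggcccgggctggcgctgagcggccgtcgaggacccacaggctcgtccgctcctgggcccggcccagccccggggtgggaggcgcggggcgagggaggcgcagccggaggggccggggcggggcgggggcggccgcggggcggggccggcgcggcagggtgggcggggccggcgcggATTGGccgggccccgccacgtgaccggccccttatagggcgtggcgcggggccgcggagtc
CACNA1I: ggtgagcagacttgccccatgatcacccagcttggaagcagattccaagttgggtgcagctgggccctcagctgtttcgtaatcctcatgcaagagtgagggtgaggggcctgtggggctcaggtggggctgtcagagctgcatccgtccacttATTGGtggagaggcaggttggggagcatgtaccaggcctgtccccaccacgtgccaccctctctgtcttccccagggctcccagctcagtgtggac
CACNA2D2: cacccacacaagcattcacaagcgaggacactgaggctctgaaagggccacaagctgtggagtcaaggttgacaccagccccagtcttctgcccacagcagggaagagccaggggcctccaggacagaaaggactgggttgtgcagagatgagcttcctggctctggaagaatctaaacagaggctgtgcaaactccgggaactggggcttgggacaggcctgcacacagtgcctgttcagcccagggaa

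The windows lie at chr2:165239164-165239413 (plus strand), chr9:137877532-137877781 (plus), chr22:39570503-39570752 (plus) and chr3:50504245-50504494 (minus). They differ widely in base composition. SCN2A's window had 29.2% G and C and 1 CpG dinucleotide, CACNA1B's had 85.2% and 39, CACNA1I's 60.8% and 3, and CACNA2D2's 58.0% and 2, where the medians over 35116 RefSeq promoters were 58.0% and 11. Over windows of 300 bases that also take in 50 bases after the start, both strands were searched for 6 motifs, none of which contains another. The retinoic acid receptor half-site AGGTCA was in 2 of 23 member windows (CACNA1D and SCN7A) and in 13.8% of all promoters. The E2F motifs TTTGGCGC and TTTCCCGC were in 0 of 23, against 0.652% and 1.63% of all promoters, and the REST motif parts TTCAGCACC and GGACAGC also in 0 of 23, against 0.376% and 6.03%. CCAAT was in 8 of 23 member windows and 34.6% of all promoters, and the SCN2A match lies after the start and so outside the line shown. A match describes letters in a window and not a bound factor.

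Most of the tested sodium channel pore genes rose with each treatment. Of 10 genes, 7 were tested, and 5 were called higher with PB, 5 with RA and 4 with PB+RA, with 0 lower in each. Among all tested genes, 16.9%, 10.8% and 24% were called higher and 11.3%, 2.54% and 17.9% lower. With 7 genes, 0 lower is near these shares. Of the 7, SCN4A (called with RA) and SCN7A (called with PB) did not reach the filter's 0.409 CPM in all 4 DMSO samples.

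SCN2A, a pore of axon initial segments in central neurons, had the largest PB response among members averaging 1 CPM or more. Its CPM in replicates 1 to 4 was 0.638, 0.571, 0.854 and 0.968 in DMSO, 1.97, 1.58, 2.26 and 1.94 in RA, 5.71, 4.06, 6.32 and 6.02 in PB, and 7.95, 5.84, 8.24 and 9.22 in PB+RA. DMSO, RA and PB did not overlap, whereas PB and PB+RA did. SCN2A rose by a log2 of 2.86 ± 0.21 with PB (adjusted p = 1.25e-08), 1.34 ± 0.22 with RA alone (0.000192) and 3.32 ± 0.20 with PB+RA (4.68e-10). The step from PB to PB+RA, 0.47 ± 0.17 (adjusted p = 0.0422), was under the fold minimum, and reached it with a GC and length correction (0.50) and without PB replicate 3 (0.56) or PB+RA replicate 2 (0.58).

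SCN3A, a pore most abundant in the embryonic brain, had a mean of 9.29 ± 2.74 CPM in DMSO (SD, n = 4), 19.7 ± 6.26 with RA, 26.2 ± 7.24 with PB and 36.3 ± 8.14 with PB+RA. Every treated group lay above DMSO without overlap, by a log2 of 1.08 ± 0.28 with RA (adjusted p = 0.00716), 1.50 ± 0.28 with PB (0.000308) and 1.93 ± 0.28 with PB+RA (1.72e-05). SCN8A, the main pore of mature axon initial segments and nodes, rose less: its means were 25.4, 48.4, 42.7 and 62.5 CPM in DMSO, RA, PB and PB+RA, with log2 changes of 0.92 ± 0.18 (0.00125), 0.75 ± 0.18 (0.00277) and 1.27 ± 0.18 (1.71e-05). All treated samples lay above DMSO, and RA (35.8 to 69.0 CPM) overlapped PB (at most 47.5 CPM). Its call for PB+RA over PB, 0.52 (adjusted p = 0.0327), was lost without PB replicate 3 or 4 or PB+RA replicate 1 or 2, at 0.43 to 0.50, and with the GC and length correction, at 0.48. For PB+RA over RA the change of 0.35 (0.112) became a call of 0.55 without RA replicate 2.

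SCN9A, the pore best known from pain-sensing neurons, was the sodium pore gene with the highest level per length in DMSO and was called in none of the comparisons. It ran from 39.2 to 52.2 CPM in DMSO, 45.8 to 67.6 in RA, 46.1 to 58.1 under PB and 36.9 to 69.9 in PB+RA, and all groups overlapped. Its log2 changes over DMSO were 0.28 ± 0.19 with RA (adjusted p = 0.258), 0.24 ± 0.19 with PB (0.303) and 0.15 ± 0.19 with PB+RA (0.481). SCN2A, SCN3A, SCN9A, SCN7A and SCN1A lie together on chromosome 2, from 165944036 to 167467992 in GRCh37, and did not move as a block: SCN2A and SCN3A rose with each treatment, SCN7A with PB, and SCN9A with none, while SCN1A, at 4 counts or fewer per sample, was not tested. Some sequence is shared among them. Of the 50-base stretches of exon, 4.77% of SCN3A's, 2.84% of SCN9A's and 2.78% of SCN2A's also occur in any other gene. In each case the gene matched most often was another of this cluster.

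**Figure D2:**
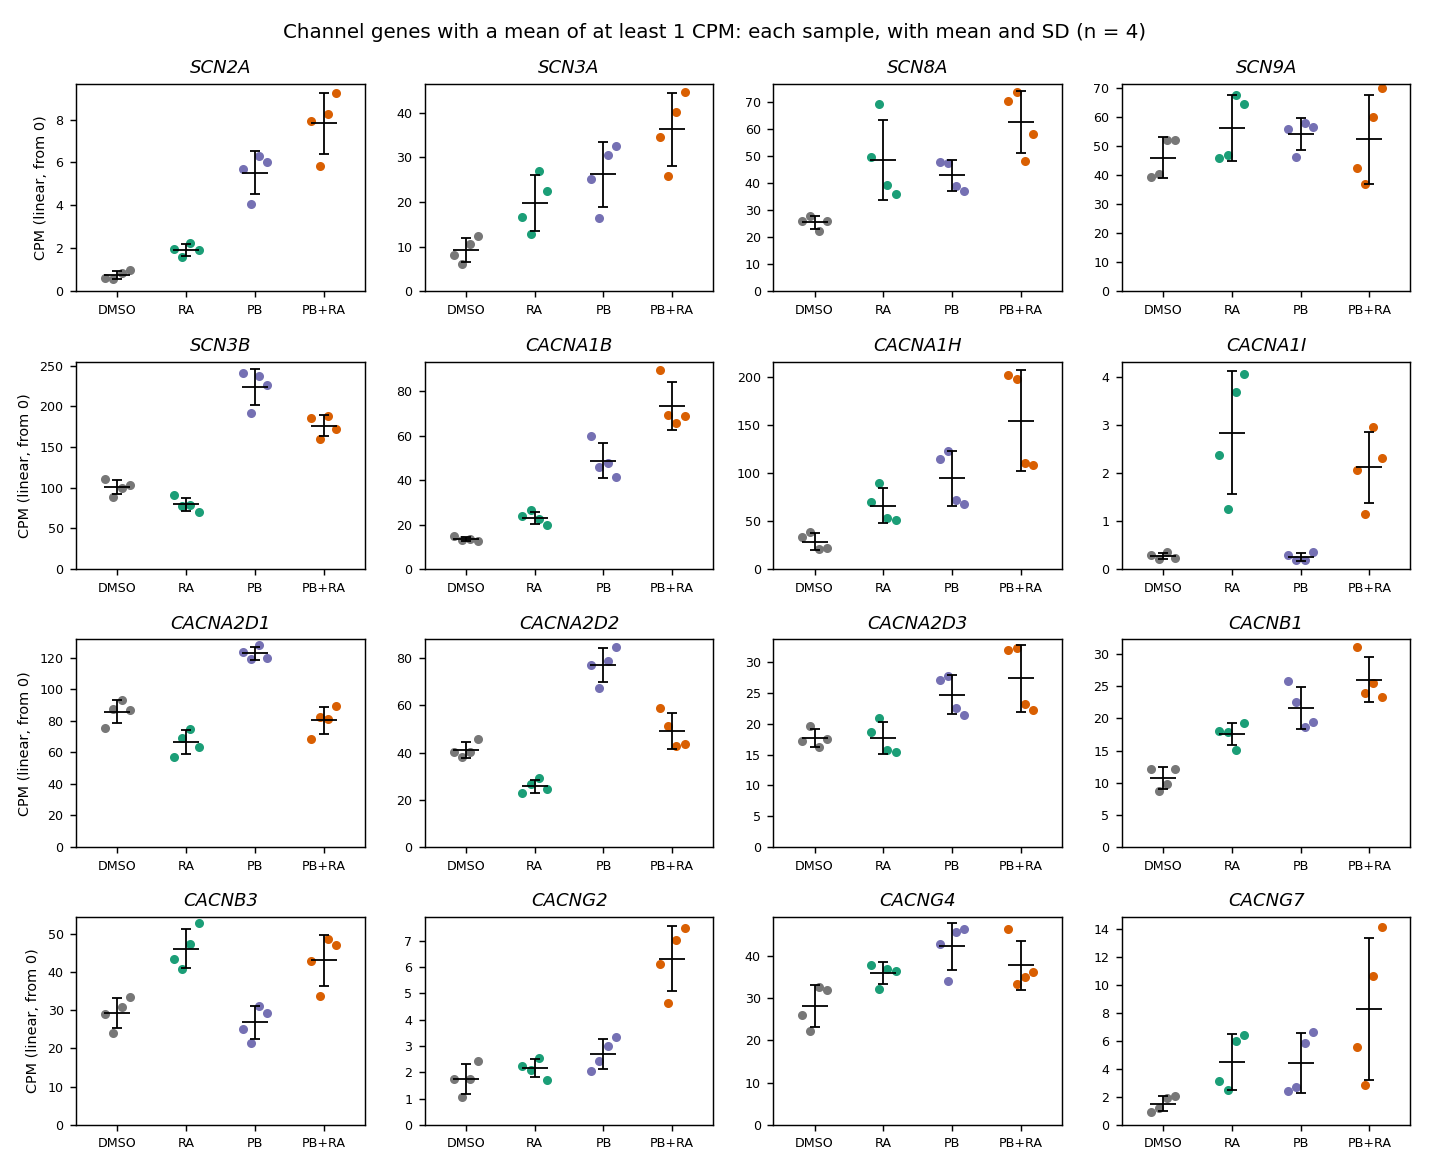
Level (y axis, CPM on a linear scale from 0) of 16 channel genes averaging 1 CPM or more, in DMSO, RA, PB and PB+RA (x axis). Coloured points are the 4 replicates of each group in the order 1 to 4, and black bars are the mean and SD; CACNA1B in PB+RA, at 65.8 to 89.6 CPM, lies above all its other samples, and SCN9A overlaps in all groups.

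The share of SCN9A among the sodium pore transcripts was lower in each treated group than in DMSO. Per kilobase of exon, SCN9A made up 43.9% ± 2.24 (SD, n = 4) of the summed CPM of the 10 pore genes in DMSO, 31.3% ± 4.57 in RA, 29.8% ± 0.858 under PB and 19.3% ± 3.90 in PB+RA. SCN8A stayed between 26.5% and 30.6% in all groups and SCN3A between 10.6% and 17.2%. In PB+RA, the levels of SCN9A, with a mean of 3.75 CPM per kb, overlapped those of both SCN8A (5.02) and SCN3A (3.14), and all SCN8A samples lay above those of SCN3A by a narrow margin, whereas in DMSO all SCN9A samples lay above those of SCN8A, and all SCN8A samples above those of SCN3A. With the longest transcript as the length, SCN9A's share was 49.2% in DMSO and 22.3% in PB+RA. The summed level of the class was 6.77 to 8.35 CPM per kb in DMSO, 11.6 to 13.9 in RA, 11.6 to 13.8 under PB and 16.9 to 21.8 in PB+RA.

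Among sodium channel beta genes, the dominant SCN3B rose with PB and not with RA. SCN3B made up 93.6% to 97.3% of the beta class per length in the group means. It stood at 111, 89.0, 100.1 and 103 CPM in DMSO, 91.0, 78.2, 78.2 and 70.4 CPM in RA, 241, 192, 237 and 226 CPM in PB, and 186, 160, 188 and 172 CPM in PB+RA. The samples given PB lay above all those without it, and the PB+RA samples lay below the PB samples. SCN3B rose by a log2 of 1.15 ± 0.09 with PB (adjusted p = 2.73e-08) and 0.78 ± 0.09 with PB+RA (8.68e-07), whereas the values of -0.35 ± 0.09 with RA (0.00634) and -0.37 ± 0.09 for PB+RA over PB (0.00348) were under the fold minimum. SCN2B had 3 or 4 counts in each DMSO sample and 14 to 32 counts in each PB+RA sample, a log2 rise of 2.97 ± 0.35 (adjusted p = 1.26e-06). With PB it rose by 2.50 ± 0.37 (2.66e-05) and with RA by 1.32 ± 0.41 (0.0194), the latter lost without DMSO replicate 1 or 3 or RA replicate 2 or 3, at 1.07 to 1.24. SCN4B, at 15 counts or fewer, was not tested.

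Among calcium channel pore genes, the N-type gene CACNA1B and the T-type gene CACNA1H were abundant and rose with both agents. CACNA1B had 14.8, 13.1, 13.6 and 12.8 CPM in DMSO, 23.9, 26.5, 22.3 and 19.9 CPM in RA, 59.7, 46.1, 47.8 and 41.2 CPM in PB, and 89.6, 69.2, 65.8 and 69.0 CPM in PB+RA. No group overlapped another, in the order DMSO, RA, PB, PB+RA. The log2 rise over DMSO was 0.76 ± 0.12 with RA (adjusted p = 0.000194), 1.84 ± 0.12 with PB (6.16e-09) and 2.40 ± 0.12 with PB+RA (6.08e-11). PB+RA also exceeded PB, by 0.56 ± 0.12 (0.00117), a call lost without PB+RA replicate 1 (0.45), without PB replicate 4 (0.49) and with the GC and length correction (0.49). CACNA1B carried at least 99.9% of the level per length of its class in the group means per kilobase of exon, and at least 99.6% with the longest transcript as the length. CACNA1A (P/Q-type) and CACNA1E (R-type) had at most 5 and 1 counts in any sample.

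CACNA1H stood at 33.2, 38.5, 20.5 and 22.1 CPM in DMSO, 69.8, 90.2, 53.0 and 51.6 CPM in RA, 115, 123, 72.0 and 68.0 CPM in PB, and 202, 198, 111 and 109 CPM in PB+RA. All treated samples lay above DMSO, and in every group replicates 1 and 2 lay above replicates 3 and 4. It rose by a log2 of 1.21 ± 0.30 with RA (adjusted p = 0.00577), 1.73 ± 0.30 with PB (0.000187) and 2.41 ± 0.30 with PB+RA (5.01e-06). The further step of PB+RA over PB, 0.69 ± 0.28, was not called (0.0714) in the fit without replicate numbers and was called with a replicate block, at 0.68 ± 0.06 (8.46e-09), and without PB+RA replicate 4 (0.84). CACNA1H made up 95.4% to 99.3% of the T-type class per length in the group means.

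CACNA1I, a T-type pore gene of thalamic and other neurons, was called with RA and not with PB, at low counts. It had 5 to 11 counts per sample in DMSO, 4 to 8 in PB, 31 to 98 in RA and 26 to 73 in PB+RA. Every DMSO and PB sample lay under the filter's 0.409 CPM, so CACNA1I was tested only through its levels in the groups given RA. The absence of a PB call rests on few counts. It stood at 0.284, 0.204, 0.348 and 0.232 CPM in DMSO and at 0.300, 0.194, 0.190 and 0.362 CPM in PB. In RA it stood at 2.38, 1.25, 3.69 and 4.05 CPM, and in PB+RA at 2.07, 1.15, 2.95 and 2.31 CPM. The samples given RA lay above all those without it, and RA and PB+RA overlapped. Its log2 change was 3.36 ± 0.39 with RA (adjusted p = 9.89e-06), 2.92 ± 0.40 with PB+RA (6.44e-06), 2.96 ± 0.42 for PB+RA over PB (4.30e-05) and -0.04 ± 0.52 with PB (0.956). PB+RA against RA was -0.44 ± 0.31 (0.252), which became a call of -0.70 without RA replicate 2.

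The remaining calcium pore genes were weakly expressed. CACNA1C, the L-type pore of heart and neurons, had 2 to 12 counts per sample in DMSO, 8 to 26 in PB, 19 to 34 in RA and 31 to 66 in PB+RA. It rose by a log2 of 2.26 ± 0.42 with RA (adjusted p = 0.000674), 1.47 ± 0.46 with PB (0.0123) and 2.95 ± 0.41 with PB+RA (7.79e-06), and the PB call was lost without PB replicate 4 (0.99). CACNA1G, a T-type gene, had 9 to 16 counts in DMSO and 13 to 38 in PB+RA and rose with PB+RA, by 1.14 ± 0.32 (0.00548). It was also called for PB+RA over PB (1.08), which was lost without PB+RA replicate 4 (0.66), and PB+RA over RA (0.63, not called) was called without PB+RA replicate 2 (0.81). CACNA1F, the L-type gene of photoreceptors, had at most 14 counts and was not called, although its value of 1.17 with PB (0.0846) became a call of 1.20 (0.0116) with the replicate block. CACNA1D had at most 3 counts and was not tested.

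The alpha2delta genes, which are the binding sites of gabapentinoid drugs in the case of CACNA2D1 and CACNA2D2, parted PB from RA. CACNA2D2 stood at 40.4, 38.0, 40.4 and 45.7 CPM in DMSO, 22.8, 26.6, 29.2 and 24.4 CPM in RA, 77.1, 67.6, 78.7 and 84.9 CPM in PB, and 58.7, 51.4, 42.7 and 43.7 CPM in PB+RA. All RA samples lay below and all PB samples above DMSO, with PB+RA between PB and RA and overlapping DMSO. It fell by 0.68 ± 0.11 on the log2 scale with RA (adjusted p = 0.000128), rose by 0.91 ± 0.10 with PB (1.77e-06), and differed from DMSO by 0.23 ± 0.10 in PB+RA (0.0603). Against PB alone, PB+RA differed by -0.68 ± 0.10 (8.68e-05), and against RA alone by 0.91 ± 0.11 (1.85e-06). In replicates 1 and 2 alone the difference between PB+RA and PB was -0.41 (0.0085), under the fold minimum.

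CACNA2D1 also lay highest in PB and lowest in RA, with 75.5 to 93.1 CPM in DMSO, 57.3 to 75.1 in RA, 119 to 128 under PB and 68.4 to 89.3 in PB+RA. PB lay above and RA below DMSO without overlap. The rise with PB, 0.52 ± 0.09 (adjusted p = 9.35e-05), lay just past the fold minimum and fell under it, at 0.44 to 0.50, without DMSO replicate 1 or PB replicate 1, 3 or 4, and under DESeq2 and its size factors (both 0.50). With RA the value was -0.38 ± 0.09 (0.00317), not called, and PB+RA was lower than PB by -0.64 ± 0.09 (2.86e-05). CACNA2D3 differed from both: it ranged from 16.3 to 19.7 CPM in DMSO, 15.5 to 20.9 in RA, 21.5 to 27.8 under PB and 22.3 to 32.3 in PB+RA, and so separated the samples by PB. It rose by 0.61 ± 0.14 with PB+RA (0.00084), a call lost without PB+RA replicate 1 or 2 (both 0.49). With PB it differed by 0.49 ± 0.14 (0.00632), which passed the fold minimum without DMSO replicate 2 (0.51) and without PB replicate 3 (0.50) or 4 (0.52). Per length, the summed alpha2delta level was 18.1 to 20.2 CPM per kb in DMSO, 13.7 to 16.1 in RA, 29.3 to 31.1 under PB and 20.4 to 23.8 in PB+RA, so that PB and not the combination held the highest total. CACNA2D4 had at most 6 counts and was not tested.

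The cytoplasmic calcium channel beta genes also divided by agent. CACNB1 rose with each, from 10.7 ± 1.71 CPM in DMSO (SD, n = 4) to 17.6 ± 1.76 with RA, 21.6 ± 3.19 with PB and 26.0 ± 3.55 with PB+RA, with log2 changes of 0.70 ± 0.13 (adjusted p = 0.000573), 1.01 ± 0.13 (5.78e-06) and 1.25 ± 0.13 (2.42e-07). No CACNB1 sample in a treated group overlapped DMSO. Its call for PB+RA over RA (0.55) was lost without RA replicate 3 (0.50) or PB+RA replicate 1 (0.43) and with the GC and length correction (0.46). CACNB3 followed RA: it stood at 29.1, 23.9, 30.8 and 33.3 CPM in DMSO, 43.4, 40.8, 47.3 and 52.7 CPM in RA, 25.1, 21.5, 31.2 and 29.3 CPM in PB, and 42.7, 33.7, 48.7 and 46.9 CPM in PB+RA. The samples given RA lay above all those without it. The log2 change was 0.64 ± 0.13 with RA (0.00155), -0.13 ± 0.14 with PB (0.448) and 0.53 ± 0.13 with PB+RA (0.00245), the last under the fold minimum without DMSO replicate 2 or PB+RA replicate 1, 3 or 4 (0.41 to 0.50) and with the GC and length correction (0.38). The share of CACNB1 in the beta class per length was 27.0% ± 2.14 in DMSO, 27.9% ± 2.80 in RA, 45.0% ± 7.10 under PB and 38.0% ± 4.69 in PB+RA. CACNB2 and CACNB4 had at most 2 and 5 counts.

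**Figure D3:**
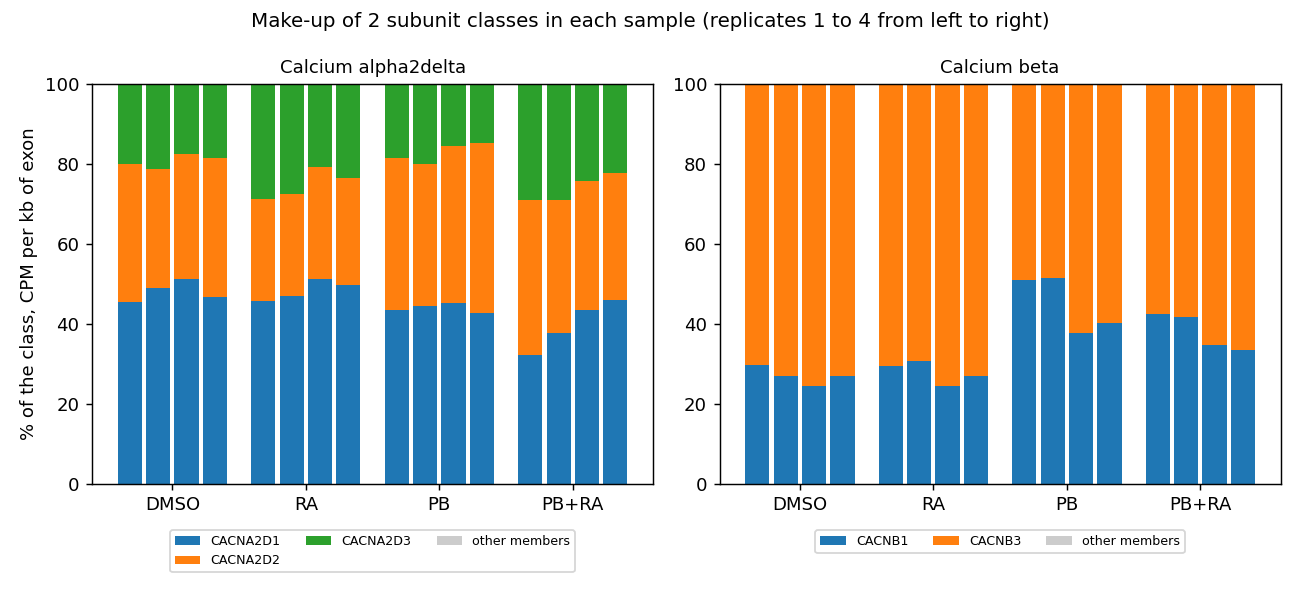
Share (y axis, % of the class total in CPM per kb of exon) of each gene in the calcium alpha2delta and calcium beta classes, as stacked bars for each of the 16 samples (x axis, replicates 1 to 4 of each group from left to right). The CACNA2D2 share is largest in PB, with a mean of 38.8%, and lowest in RA, at 26.4%, and the CACNB1 share is largest in PB, at 45.0%.

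In the gamma family, the AMPA receptor partners CACNG2, CACNG4, CACNG7 and CACNG8 were tested. CACNG2, whose product is stargazin, stood at 1.74, 1.06, 1.74 and 2.44 CPM in DMSO, 2.25, 2.10, 2.53 and 1.71 CPM in RA, 2.06, 2.42, 2.99 and 3.35 CPM in PB, and 6.12, 4.65, 7.03 and 7.48 CPM in PB+RA. Only the PB+RA group was free of overlap with the others. The log2 change was 1.82 ± 0.22 with PB+RA (adjusted p = 1.93e-06), 0.29 ± 0.23 with RA (0.35) and 0.63 ± 0.23 with PB (0.0293), the last lost without DMSO replicate 1, 2 or 3 or PB replicate 3 or 4 (0.44 to 0.61). Of CACNG2's 50-base exon stretches, 31.3% also belong to a second annotated gene on the same strand at its 3′ end, so its counts are uncertain. CACNG4, the gamma gene with the highest level per length, was called with PB, by 0.58 ± 0.13 (0.00131), from 22.3 to 32.6 CPM in DMSO to 34.1 to 46.3 CPM in PB. This call was lost without DMSO replicate 2 (0.46), and the values of 0.34 with RA and 0.39 with PB+RA were under the fold minimum.

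CACNG7 and CACNG8 are neighbours on chromosome 19 (54412532 to 54447204 and 54466191 to 54493469, GRCh37) and rose with each treatment. CACNG7 stood at 0.922, 1.18, 1.90 and 2.09 CPM in DMSO, 3.15, 2.47, 5.99 and 6.40 CPM in RA, 2.44, 2.71, 5.85 and 6.65 CPM in PB, and 5.61, 2.83, 10.6 and 14.2 CPM in PB+RA. All treated samples lay above DMSO, and in each group replicates 3 and 4 lay above replicates 1 and 2. Its log2 rise was 1.55 ± 0.51 with RA (adjusted p = 0.0289), 1.53 ± 0.51 with PB (0.0205) and 2.41 ± 0.51 with PB+RA (0.000659). The RA call was lost without DMSO replicate 1 or 2 or RA replicate 3 or 4 (1.31 to 1.44), the PB call without DMSO replicate 1 or 2 or PB replicate 3 or 4 (1.23 to 1.41), and both under limma-voom. PB+RA exceeded PB by 0.88 (0.16) and RA by 0.86 (0.133), which were called without PB+RA replicate 2 (1.16 and 1.13) and with the replicate block (0.84 and 0.81). CACNG8 had 0 to 2 counts per sample in DMSO, 3 to 13 in RA, 5 to 11 under PB and 7 to 37 in PB+RA. All 3 treated groups were called (adjusted p = 0.0108, 0.00524 and 1.19e-05), and no fold is given against so few counts.

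Replicates with the same number deviated together, and some channel genes separated replicates 1 and 2 from 3 and 4 in every group. Across genes, the deviations of replicates 1 and 2 in different groups also correlated positively, as did those of replicates 3 and 4. The mean CACNA1H level of replicates 1 and 2 over that of 3 and 4 was 1.69 in DMSO, 1.53 in RA, 1.70 under PB and 1.82 in PB+RA. For CACNG7 these ratios were 0.528, 0.454, 0.412 and 0.340, and for SCN3A 0.616, 0.595, 0.658 and 0.711. Within either set of replicates the order of the group means was DMSO, RA, PB, PB+RA for CACNA1H and SCN3A.

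**Figure D4:**
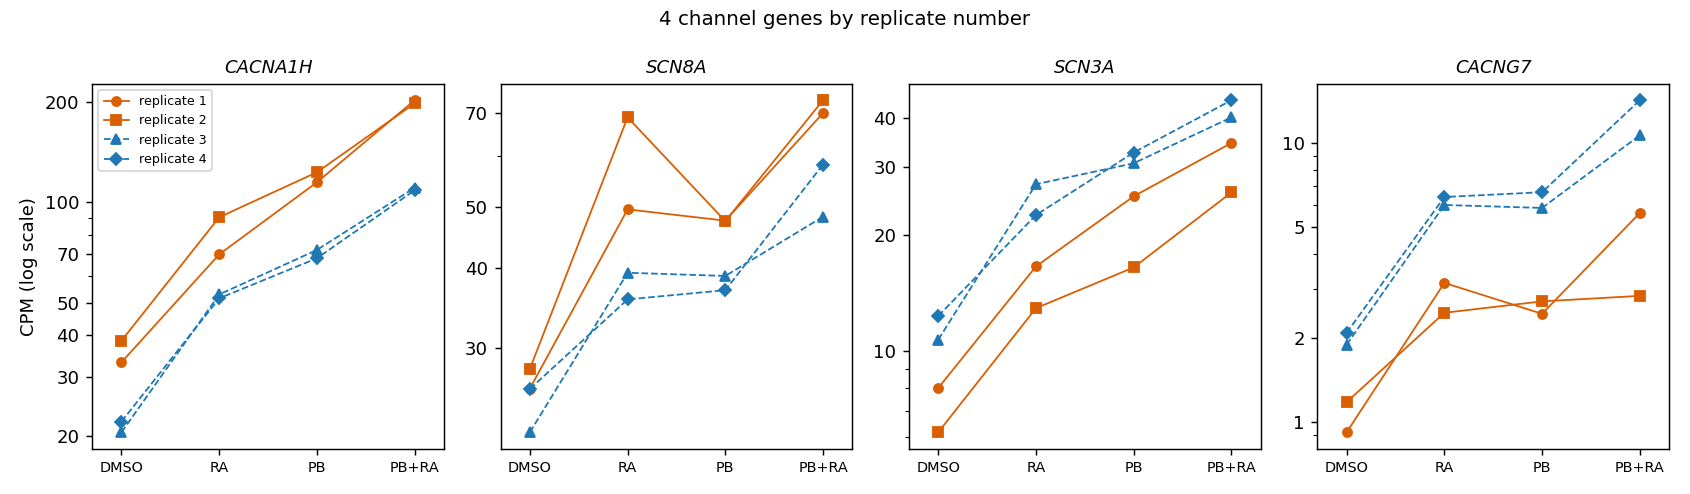
Level (y axis, CPM on a log scale) of CACNA1H, SCN8A, SCN3A and CACNG7 in the 4 groups (x axis), with a line for each replicate number; lines join samples that share a number and are not time courses. CACNA1H lies higher in replicates 1 and 2 (solid) and SCN3A and CACNG7 lie higher in replicates 3 and 4 (dashed) in every group.

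Whether the agents acted additively on the log2 scale was asked with the interaction, which subtracts the PB change and the RA change from the PB+RA change, all against DMSO. In the fit without replicate numbers 0 of 25 members were called in either direction, where 0.415% of all tested genes were called higher and 3.02% lower. At an unadjusted p below 0.05 there were 4 negative and 1 positive members, and DESeq2 and limma-voom also called 0, with 5 members given no adjusted p by DESeq2. The lowest adjusted p was that of SCN2A, at -0.87 (0.0847). With the replicate number as a block, 5 members were called below additive: SCN2A (-0.88 ± 0.19, adjusted p = 0.00299), CACNG7 (-0.72 ± 0.24, 0.0442), SCN3A (-0.63 ± 0.11, 0.00047), CACNA1H (-0.54 ± 0.09, 0.000174) and CACNG4 (-0.53 ± 0.13, 0.00733). CACNG2 alone was called above additive, at 0.87 ± 0.25 (0.019). Under that fit 6.36% of all tested genes were called lower and 1.23% higher. Without the block, single omissions gave a call for SCN2A (-0.98, without PB replicate 2), CACNG4 (-0.64, without PB+RA replicate 1) and CACNG2 (1.07, without DMSO replicate 2). CACNA1B, which rose in steps through the groups, had an interaction of -0.20 and was called in neither fit.

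Other members were at the edge of detection. SCN4A, the pore of skeletal muscle, had 8 to 14 counts per sample in DMSO, 20 to 34 in RA, 2 to 8 under PB and 5 to 15 in PB+RA. It rose with RA by a log2 of 1.48 ± 0.36 (adjusted p = 0.00499) and was lower in PB+RA than in RA, by -1.25 ± 0.37 (0.00845). The RA call was lost in replicates 1 and 2 alone (1.20, 0.0881). The call for PB+RA against RA was lost in replicates 3 and 4 alone (-0.75, 0.0871). SCN7A, a sodium-sensing relative of the pores, had 6 to 9 counts in DMSO and 14 to 24 in PB and rose with PB by 1.58 ± 0.45 (0.00667); its change with PB+RA, 0.98 (0.0747), was called with the replicate block (0.97, 0.0295) and without PB+RA replicate 2 (1.18). SCN7A was also called for PB+RA over RA (1.23, 0.0433), which was lost on leaving out any of RA replicates 1 to 3 or PB+RA replicates 1, 3 and 4 (0.92 to 1.29). The 12 untested members were CACNA1A, CACNA1D, CACNA1E, CACNA2D4, CACNB2, CACNB4, CACNG1, CACNG5, SCN10A, SCN11A, SCN1A and SCN4B, each with at most 15 counts in any sample. Of these, CACNG5 had 4 to 15 counts in DMSO and 1 to 3 in PB+RA. A stretch of 61 bases of SCN11A exon overlaps exon of WDR48 on the opposite strand, which averaged 52.0 CPM.

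Genes that work with these channels were read from 7 lists, 37 genes in all, of which 32 were tested. With PB, 12 were called higher and 2 lower, where 16.9% and 11.3% of all tested genes were called. With RA, 5 were called higher and 0 lower, against 10.8% and 2.54% of all tested genes, and with PB+RA 14 were called higher and 5 lower, against 24% and 17.9%. The RA count and the lower count for PB+RA are near these shares. With RA, 6 of the 32 were negative at an unadjusted p below 0.05, and DESeq2 and limma-voom also called 0 lower. Of 5 genes of the voltage-independent sodium leak complex, which sets resting excitability, 4 were tested, and the pore gene NALCN was not. The 4 were each called higher with PB and with PB+RA, namely FAM155B (log2 1.70 ± 0.07 with PB+RA), UNC79 (0.74 ± 0.07), UNC80 (0.70 ± 0.13) and FAM155A (0.54 ± 0.07), and with RA only FAM155B was called (0.51). Intracellular modulators of sodium channels were higher in 2 of 3 with PB and with PB+RA, where FGF13 changed by 2.58 ± 0.54 (adjusted p = 0.000581) and FGF14 by 1.02 (1.47e-06) and neither was called with RA. Of 6 anchors of the axon initial segment, 4 were higher with PB, 0 with RA and 3 with PB+RA: SPTBN4 (1.54), CNTN1 (1.16) and ANK2 (0.52). The anchor ANK3 was not called with PB (-0.44, adjusted p = 0.173) or with PB+RA (-0.47, 0.13). Against PB alone, PB+RA had 0 anchors higher and 2 lower, CNTN1 among them (-0.73, 0.0364), where 9.02% of all tested genes were called higher and 7.27% lower. Against RA alone it had 2 higher and 1 lower, ANK3 (-0.74, 0.0254), against 14.9% and 14.1%. For 6 genes, the 0 higher against PB and the 1 lower against RA are near these shares.

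Presynaptic tethers of calcium channels were mixed. With PB+RA, 24% of all tested genes were called higher and 17.9% lower. For lists this small, the counts called lower are near these shares, as is the count called higher among the adaptors and sensors. Of 6 tested, 3 were higher and 2 lower with PB+RA: TSPOAP1 (1.28, adjusted p = 4.11e-05) and RIMBP2 (0.98, 4.30e-08), which bind the channels at release sites, rose, as did the weakly expressed RIMS1, whereas RIMS2 (-0.997, 3.48e-06) and RIMS3 (-0.52, 0.00015) fell. Among 7 adaptors and calcium sensors, CABP1 (-1.53, 0.000354) and STAC2 (-0.92, 0.000613) fell with PB+RA and the weakly expressed STAC3 rose, while the calmodulin genes CALM2 and CALM3 were not called. Of the RGK proteins, inhibitors of high-voltage calcium channels, GEM had a value of 0.59 (0.0553) and REM2, at under 1 CPM on average, rose. REST, the repressor of many neuronal channel genes, rose with RA (1.01 ± 0.29, adjusted p = 0.012) and in PB+RA over PB (1.06 ± 0.30, 0.0113), and was called neither with PB (-0.69, 0.0643) nor with PB+RA over DMSO (0.37, 0.266). Its corepressor RCOR1 fell by 0.61 on the log2 scale with PB+RA (1.84e-06).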

How the data were processed

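RNA-seq of 16 SK-N-BE(2)C samples was analysed. The authors trimmed reads with Trim Galore 0.6.4 and aligned them to hg19 with STAR 2.6.1d, versions per the labels. The deposited counts are STAR's raw read counts per gene, and the annotation release and strand column are not given in the sources used here. The deposited CPM are the authors' counts divided by each sample's total and multiplied by 1e6. A deposited table of the authors' own DESeq2 comparisons (log2 fold changes and adjusted p-values) was not used.

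Counts were fitted in R 4.3.3 with edgeR 4.0.16 (filterByExpr, TMM factors from 0.983 to 1.02, quasi-likelihood, robust, all 16 samples, a term per group), and SE is the absolute log2 change over the square root of F. Alternatives were DESeq2 1.42.0, limma-voom (limma 3.58.1), other filters, scalings and fold minimums, a GC and length offset (gene models for 95.2% of tested genes), a replicate block, replicate subsets and leaving out each sample. Same-numbered samples of different groups deviated from their group means together (r from 0.415 to 0.699 over 24 pairs, across genes). Pairs with different numbers had r from -0.633 to 0.578 over 72 pairs, which overlaps that range. The correlations therefore do not fully separate single numbers, and the replicate block takes its pairing from the numbers in the sample titles. The fit was tested on simulated data. Named members had a mean of at least 1 CPM and at least 1 call, and up to 3 genes were named per partner list; genes outside these rules were named after their values were seen. Members and lists were chosen with earlier results of these data known. Gene coordinates are GENCODE v44 models mapped to GRCh37, and promoters are RefSeq's on GRCh38.p14. Some genes are not reported here.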

Additional observations from a re-analysis of the deposited data

Results flagged for a closer look

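CACNA1B in PB+RA replicate 1, at 89.6 CPM, stood apart from the other 3 replicates of its group, which lay between 65.8 and 69.2 CPM: its gap to the nearest was 0.858 of the group's range, beyond Dixon's critical value of 0.829 for 4 samples. Chance exceeds that value in about 1 in 20 groups, and 64 groups were tested. Without this sample, CACNA1B's excess of PB+RA over PB was 0.45 on the log2 scale, under the fold minimum of 0.5. Its replicate 1 was also the highest of the PB group, at 59.7 CPM.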

How the results depend on the processing

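Counts of members called higher over DMSO and between treatments stayed within 1.5 times under every alternative run. Leaving out 1 sample at a time gave 14 to 17 members higher with PB, 12 to 14 with RA, 15 to 17 with PB+RA, 7 to 10 for PB+RA over PB and 11 to 15 over RA. Small counts moved. With RA, members called lower were 2 in replicates 3 and 4 alone (CACNA2D2 and SCN3B), 3 with no fold minimum and 0 with a log2 minimum of 1. With PB+RA over DMSO they were 2 among genes with a summed count above 10 (CACNG5 and SCN1A, filtered out otherwise) and 1 in replicates 1 and 2 alone (CACNG5). For PB+RA under PB the count was 1 in replicates 1 and 2 alone and 0 with a log2 minimum of 1. For PB+RA under RA it was 2 among genes with a summed count above 10, 0 when only genes averaging 1 CPM or more are tested (SCN4A is then left out), 2 with the block and the GC and length offset, and 1 to 2 on leaving out 1 sample (2 without RA replicate 2, CACNA1I and SCN4A). For the interaction, the replicate block gave 1 higher and 5 lower, the block with the GC and length offset 1 and 4, replicates 1 and 2 alone 0 and 1 (SCN9A), replicates 3 and 4 alone 1 and 3, and leaving out 1 sample 0 to 1 in each direction. Apart from the interaction, the block, which uses the pairing of replicate numbers, added calls for CACNA1F with PB, SCN7A with PB+RA, CACNA1H and CACNG7 for PB+RA over PB, and CACNA1C (0.69) and CACNG7 over RA, and removed 0. No call of a named member reversed its direction: of 1935 refitted values, 1836 kept their side of the threshold, 54 lost a call and 45 gained one. The causes of these moves were not tested beyond the members named. Depth limits the members under 1 CPM, whose calls rest on 66 counts or fewer per sample.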
